A study of Mus musculus with 3 samples.

Results

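The IL-12 and IL-18 receptors are each built from a pair of chains, and the 4 genes that encode them were followed here in single CD8 T cells: Il18r1 and Il18rap for the IL-18 receptor, Il12rb1 and Il12rb2 for the IL-12 receptor. They were taken by name, as 4 of the 31053 genes in the count matrices, and not for any measured value. The cells came from the P14 system, in which CD8 T cells carry a transgenic receptor for an LCMV glycoprotein peptide. All 3 groups were C57BL/6 and labelled wild type, and each was 1 library, so no difference below has a replicate check and no test was possible. The first group, TdLN, held CD45.1+CD44+ CD8 T cells sorted from the tumour-draining lymph node, and the second, PBMC, held cells of the same sort from blood. Both were collected at day 16 after naive CD44- GFP+ P14 cells, from P14 mice with a TCF-1-GFP reporter, had been transferred into hosts at day 8 of growth of B16.Gp, a B16.F10 melanoma line made to express the LCMV glycoprotein. The third group, memory, held P14 cells from a sort that included CD45.1+, CD44+, KLRG1- and CD127+, taken 200 days after acute LCMV infection. The labels state neither how many mice went into a library nor from which tissue memory cells came, the sort of the memory cells was narrower than that of the other libraries, and library, sort, antigen and time cannot be told apart.

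IL-18 binds the IL-18Rα chain, encoded by Il18r1, and signalling needs the accessory IL-18Rβ chain, encoded by Il18rap, which completes a TIR-domain complex that acts through MyD88, IRAK kinases and TRAF6 on NF-κB. IL-12 binds a receptor of IL-12Rβ1 (Il12rb1), which holds the kinase TYK2 and also serves the IL-23 receptor, and IL-12Rβ2 (Il12rb2), which holds JAK2 and recruits STAT4. Memory and effector CD8 T cells are known to make interferon-γ when IL-12 and IL-18 arrive together, without a signal through the T cell receptor. In mouse T cells IL-12 signalling itself is known to raise the genes of the IL-18 receptor.

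Il18r1 (ENSMUSG00000026070) lies on the plus strand of chromosome 1 at 40465552 to 40500854 (GRCm38, GENCODE M21), and Il18rap (ENSMUSG00000026068) follows on the same strand at 40515362 to 40551705, 14507 bases further on. Il12rb1 (ENSMUSG00000000791) spans 70808449 to 70821424 on the plus strand of chromosome 8, and Il12rb2 (ENSMUSG00000018341) spans 67291318 to 67376188 on the minus strand of chromosome 6. The 130 bases before the annotated start are printed for the 3 of 4 genes with a RefSeq promoter entry (GRCm38.p6), because Il18r1 and Il18rap ran in parallel across clusters and Il12rb2 ran in parallel with Tbx21, the gene of its known regulator T-bet. Il18r1 has 3 starts listed there, and only the window at the annotated start of the gene is printed and described. Capitals mark 4 short motifs looked for on both strands, the ETS core GGAAG, the RUNX core TGTGGT, the T-box core GTGTGA and the STAT motif TTCNNNGAA, which were chosen after the sequences had been seen.
Il18r1, chr1:40465422-40465551, plus strand: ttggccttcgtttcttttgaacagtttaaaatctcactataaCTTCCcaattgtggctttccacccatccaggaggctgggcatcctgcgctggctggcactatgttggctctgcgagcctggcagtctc
Il18rap, chr1:40515232-40515361, plus strand: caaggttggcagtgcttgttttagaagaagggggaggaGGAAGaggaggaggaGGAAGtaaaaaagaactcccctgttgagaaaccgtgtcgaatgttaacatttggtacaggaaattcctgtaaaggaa
Il12rb2, chr6:67376189-67376318, minus strand: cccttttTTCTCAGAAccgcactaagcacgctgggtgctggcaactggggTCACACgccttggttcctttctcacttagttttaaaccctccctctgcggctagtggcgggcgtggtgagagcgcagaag
The Il18r1 window held 1 ETS core, on the strand opposite the gene at base -88, and the Il18rap window held 2 on the gene's own strand, at bases -92 and -77. The Il12rb2 window held the T-box core on the opposite strand at base -80 and the STAT motif, which reads the same on both strands, at base -123. None of the 3 windows held the RUNX core, and no match overlapped another. Among all 32851 RefSeq promoter windows of that length, 43.4% held the ETS core, 7.26% the RUNX core, 6.41% the T-box core and 3.53% the STAT motif. These letter matches describe the windows, and binding was not measured.

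Counts are unique molecular identifiers (UMIs), each standing for 1 captured transcript end from a 10x Chromium 3′ library. After the filter on genes and mitochondrial counts and removal of other cell types, 6075 TdLN, 5481 PBMC and 6993 memory T cells were left, with 68496381, 47592525 and 70037956 UMIs and a median of 9745, 7116 and 9957 UMIs per cell. A count of 0 in a library allows a level of up to 0.0438, 0.0630 and 0.0428 in TdLN, PBMC and memory, in UMIs per 1000000 counted (CPM). The cells removed were 190 in TdLN, mostly with B cell or macrophage markers, 171 in PBMC with platelet RNA, and 10 in memory. Libraries shared 11 to 17 cell barcodes per pair. All 8 T cell markers were seen in every library, and their summed level was 6122 CPM in TdLN, 6256 CPM in PBMC and 5054 CPM in memory T cells. Summed B cell markers were higher in TdLN T cells, at 228.6 CPM, than in PBMC, at 106.4 CPM, and memory, at 90.4 CPM, with none of the 6 at 0 in TdLN and 2 at 0 in each of the others. Summed macrophage, monocyte and dendritic markers were 81.1 CPM in TdLN, 113.8 CPM in PBMC and 106.4 CPM in memory, and stromal markers 38.4, 18.4 and 18.7 CPM. Platelet markers were 0.175, 5.40 and 0.257 CPM, NK and gamma delta T cell markers 509.7, 305.0 and 485.8 CPM, and erythroid, neutrophil, melanoma and CD4 T cell markers at most 4.22 CPM in any library. The part of these markers in the receptor levels was not tested. CPM intervals are exact Poisson, shares carry Clopper-Pearson intervals, and both are at 95% and cover counting error only.

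The IL-18 receptor genes were much the more heavily counted pair, and the ligand-binding chain Il18r1 was lowest in the draining node and highest in memory cells. Il18r1 stood at 41.7 CPM in TdLN (interval 40.2 to 43.2), 131.5 CPM in PBMC (128.3 to 134.8) and 243.4 CPM in memory (239.8 to 247.1), from 2855, 6258 and 17048 UMIs. None of the 3 intervals overlapped. TdLN lay 5.84-fold below memory (5.61 to 6.08) and 3.16-fold below PBMC (3.02 to 3.30), and PBMC lay 1.85-fold below memory (1.80 to 1.91). Il18r1 supplied 69.1% of the UMIs of the 4 genes in TdLN, 61.1% in PBMC and 78.5% in memory.

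The accessory chain Il18rap kept TdLN lowest but put PBMC above memory. It stood at 13.6 CPM in TdLN (12.7 to 14.5), 75.03 CPM in PBMC (72.6 to 77.5) and 53.0 CPM in memory (51.3 to 54.7). TdLN lay 3.90-fold below memory (3.63 to 4.198) and 5.53-fold below PBMC (5.14 to 5.95), and PBMC lay 1.42-fold above memory (1.35 to 1.48). The order of PBMC and memory is therefore opposite for the chains of the same receptor. For Il18rap it turned round in cells with Tcf7 and Ccr7 UMIs and outside effector, cycling and interferon clusters. It also turned round in cells with the T cell receptor segment of the P14 clone, but not in clusters with effector markers, as given below.

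The IL-12 receptor genes were sparse. Il12rb1, the chain shared with the IL-23 receptor, had 260 UMIs or 3.796 CPM in TdLN (3.35 to 4.29), 208 UMIs or 4.37 CPM in PBMC (3.797 to 5.01) and 431 UMIs or 6.15 CPM in memory (5.59 to 6.76). TdLN lay 1.62-fold below memory (1.39 to 1.90) and PBMC 1.41-fold below memory (1.19 to 1.67), while the interval of the TdLN to PBMC ratio, 0.721 to 1.05, included 1. Il12rb2, the STAT4-recruiting chain, had 86 UMIs or 1.26 CPM in TdLN (1.004 to 1.55), 199 UMIs or 4.18 CPM in PBMC (3.62 to 4.80) and 533 UMIs or 7.61 CPM in memory (6.98 to 8.29). TdLN lay 6.06-fold below memory (4.82 to 7.70) and 3.33-fold below PBMC (2.57 to 4.34), and PBMC lay 1.82-fold below memory (1.54 to 2.15). The order of levels was thus TdLN, PBMC, memory for Il18r1 and Il12rb2, with TdLN and PBMC not apart in counting error for Il12rb1.

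**Figure D1:**
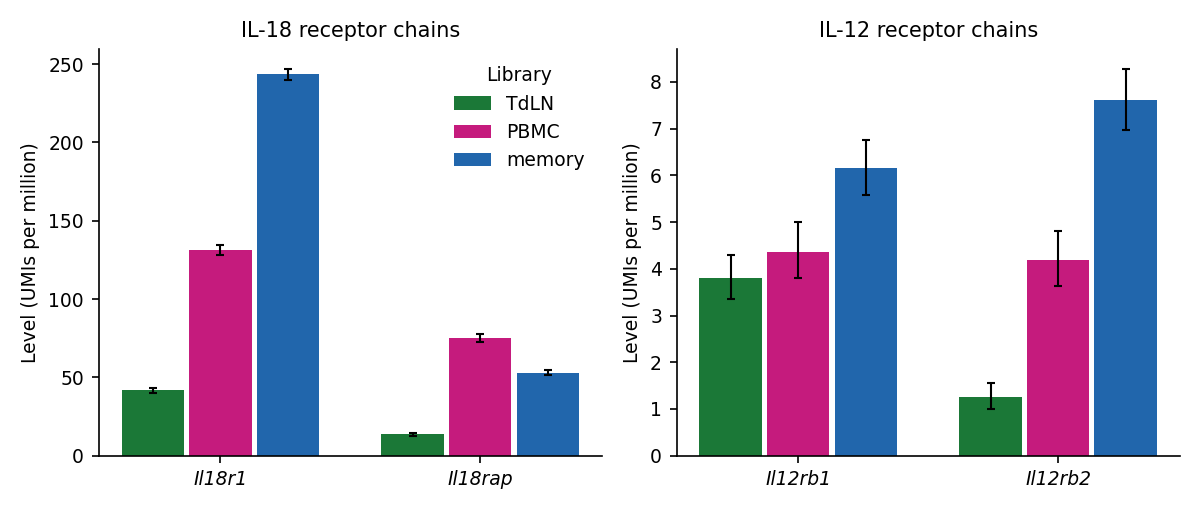
Level of each receptor gene in CPM of T cells from the TdLN, PBMC and memory libraries, with the IL-18 receptor chains at left and the IL-12 receptor chains at right on a smaller scale. Bars are 1 library each and error bars are exact Poisson 95% intervals. Il18r1 climbs across TdLN, PBMC and memory, while Il18rap is highest in PBMC at 75.03 CPM.

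Of the 4 genes, only Il18r1 and Il18rap reached the 20 CPM in 1 library of a pair that was set for counting genes. In TdLN over memory both of them were at least 2-fold lower, against 1.90% of 4625 genes at least 2-fold lower and 3.96% at least 2-fold higher. In TdLN over PBMC both were again at least 2-fold lower, where 1.92% of 4583 genes were lower and 2.68% higher by that much. In PBMC over memory neither passed 2-fold, where 0.616% of 4385 genes were lower and 1.66% higher. The median gene had a log2 ratio of 0.16 for TdLN over memory, of 0.04 for PBMC over memory and of 0.11 for TdLN over PBMC. With TMM scaling the medians were 0.03, 0.03 and -0.01. The log2 ratios of Il18r1 were -2.55, -0.89 and -1.66 in those comparisons, and those of Il18rap were -1.96, 0.50 and -2.47. The comparisons share libraries, so they are not independent of each other.

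The receptor genes were also read cell by cell. To remove the difference in depth, each cell was thinned to 3000 UMIs, which left out 50 TdLN, 140 PBMC and 107 memory cells. Il18r1 was then seen in 11.4% of 6025 TdLN cells (10.6 to 12.3), 33.6% of 5341 PBMC cells (32.4 to 34.9) and 49.97% of 6886 memory cells (48.8 to 51.2). Unthinned, the shares were 30.3%, 56.0% and 85.3%. At least 3 Il18r1 UMIs among the 3000 were found in 0.282% of TdLN cells, in 3.39% of PBMC cells and in 4.79% of memory cells. A share with a UMI at this depth follows the mean level, so it does not say how many cells express the gene.

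Il18rap was seen in 4.07% of thinned TdLN cells (3.58 to 4.60), 23.9% of PBMC cells (22.8 to 25.1) and 14.7% of memory cells (13.9 to 15.6), and in 12.6%, 39.5% and 38.4% unthinned. The intervals of the unthinned PBMC and memory shares overlapped, while the thinned shares and the CPM put PBMC higher. Il12rb1 was seen in 0.847%, 1.57% and 2.004% of thinned TdLN, PBMC and memory cells, and Il12rb2 in 0.398%, 1.72% and 2.27%. Nearly all of these were cells with a single UMI, so the IL-12 receptor shares say how often 1 molecule was caught and not how many cells express the gene.

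Free RNA can put UMIs into cells that do not make a transcript, so the removed TdLN cells of other types are set beside the T cells. In thinned cells Il18r1 was in 11.4% of TdLN T cells, against 0 of 72 B-like cells, which allows a share of up to 4.17%, and 6.38% of 47 macrophage-like cells (1.34 to 17.5), an interval that holds the T cell share. Unthinned, Il18r1 was in 30.3% of TdLN T cells at a median of 9745 UMIs, against 3.85% of 78 B-like cells at 4530.5 UMIs and 6.25% of 112 macrophage-like cells at 2495.5 UMIs. Scaled to each type's own UMI total, it stood at 18.4 CPM in the macrophage-like cells (8.81 to 33.8) and 10.06 CPM in the B-like cells (3.27 to 23.5), both below the level of TdLN T cells. Il18rap stood apart from both types in unthinned shares alone, which carry the same difference in depth. These were 12.6% of TdLN T cells (11.8 to 13.5), 2.56% of B-like cells (0.312 to 8.96) and 4.46% of macrophage-like cells (1.465 to 10.1). Thinned, Il18rap was in 4.07% of TdLN T cells, against 1.39% of B-like cells (0.0352 to 7.497) and 6.38% of macrophage-like cells (1.34 to 17.5). Its 12.9 CPM in macrophage-like cells (5.17 to 26.5) was close to the TdLN T cell level. Il12rb2 was in 1.30% of TdLN T cells unthinned, against none of the B-like cells, which allows up to 3.85%, and 3.57% of the macrophage-like cells (0.982 to 8.89). Thinned, it was in 0.398% of TdLN T cells and in none of 47 macrophage-like cells. Il12rb1 was in 3.97% of TdLN T cells unthinned, against 1.28% of B-like cells (0.0325 to 6.94) and 2.68% of macrophage-like cells (0.556 to 7.63). The TdLN levels of Il18rap, Il12rb1 and Il12rb2 were therefore not shown to lie above those in other cell types, which limits their TdLN ratios given above, and whether the macrophage-like cells make the transcripts was not tested.

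Il12rb2 carries a further limit. Its 3′ end shares 1519 exonic bases with Serbp1, a broadly expressed RNA-binding protein gene on the opposite strand, and whether the counting used strand is not given in the sources used here. Serbp1 stood at 565.4 CPM in TdLN, 479.4 CPM in PBMC and 528.7 CPM in memory, an order that differs from that of Il12rb2. How many Il12rb2 UMIs come from Serbp1 was not tested.

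The chains of the IL-18 receptor were counted in different proportion in each library. There were 0.326 Il18rap UMIs per Il18r1 UMI in TdLN (0.302 to 0.351), 0.571 in PBMC (0.547 to 0.595) and 0.218 in memory (0.210 to 0.226), 3 intervals that stand apart. These are ratios of 3′ tag counts, which are not scaled by transcript length, and they are compared between libraries and not read as the ratio of the proteins. For the IL-12 receptor there were 0.331 Il12rb2 UMIs per Il12rb1 UMI in TdLN (0.256 to 0.424), 0.957 in PBMC (0.784 to 1.17) and 1.24 in memory (1.09 to 1.41).

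Both IL-18 receptor chains were seen together in 0.764% of thinned TdLN cells (0.559 to 1.02), 10.3% of PBMC cells (9.46 to 11.1) and 7.84% of memory cells (7.22 to 8.50). Il18r1 alone was seen in 10.7%, 23.4% and 42.1%, and Il18rap alone in 3.30%, 13.6% and 6.90%. At this depth memory cells were the most often Il18r1-positive without a caught Il18rap, and PBMC the most often double positive. The order of the double positives was not the same in other settings, at 15.4% in PBMC and 15.6% in memory at 5000 UMIs, and 24.9% in PBMC and 33.6% in memory unthinned. Thinning to 5000 UMIs leaves out shallower cells, and the PBMC cluster led by Gzma and Cx3cr1 had a median of 5041 UMIs. Unthinned, the medians were 7116 UMIs in PBMC and 9957 in memory. Depth and the cells kept were not told apart. Had the chains been caught independently, 0.464%, 8.04% and 7.37% of cells would have held both, so the observed share was 1.64, 1.28 and 1.06 times that in TdLN, PBMC and memory. In TdLN, 6.69% of Il18r1-positive cells (4.94 to 8.82) also held Il18rap, against 3.73% of Il18r1-negative cells (3.24 to 4.27). In PBMC, 30.5% of Il18r1-positive cells (28.4 to 32.7) also held Il18rap, against 20.5% of Il18r1-negative cells (19.2 to 21.9). In memory these shares were 15.7% (14.5 to 17.0) and 13.8% (12.7 to 14.98), and their intervals overlapped.

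The excess in PBMC lay between clusters and not within the Il18rap-rich ones. Within the largest PBMC cluster, led by Gzma and Cx3cr1, 19.9% of cells held both chains, 0.981 times the independent share. The ratio was 1.04 in the PBMC cluster led by Serp2 and Tcrg-C2 and 0.994 in the one led by Gzmm. Above 1 it was 1.69 in the PBMC cluster led by Igfbp4 and Fam241a, on 14 double-positive cells. In TdLN it was 1.31 within the cluster led by Fos and Dusp1, on 26 double-positive cells, and the other TdLN clusters held at most 6 such cells.

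**Figure D2:**
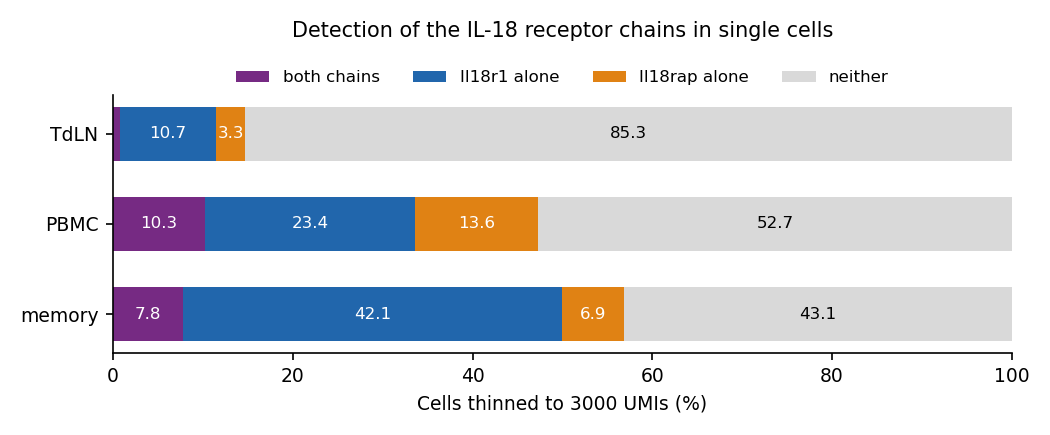
Share of cells, each thinned to 3000 UMIs, with both IL-18 receptor chains, Il18r1 alone, Il18rap alone or neither, for 6025 TdLN, 5341 PBMC and 6886 memory T cells. At this depth PBMC has the most cells with both (10.3%) and memory the most with Il18r1 alone (42.1%). Unthinned, where memory cells have more UMIs than PBMC cells, memory has more cells with both than PBMC.

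Across receptors, Il12rb2 was caught more often in PBMC cells with Il18rap than in those without. In PBMC, 3.37% of Il18rap-positive cells (2.45 to 4.51) held Il12rb2, against 1.205% of Il18rap-negative cells (0.893 to 1.59), and 43 cells held both, 1.96 times the independent share. This factor pools all PBMC clusters and is not given within them. In the cluster led by Gzma and Cx3cr1, 3.525% of all thinned cells (2.76 to 4.43) held Il12rb2, close to the share of Il18rap-positive PBMC cells. In memory the shares were 3.35% (2.33 to 4.65) and 2.08% (1.73 to 2.48), with overlapping intervals and 34 cells with both. For Il18r1 with Il12rb2 the factor was 1.26 in PBMC and 1.05 in memory, on 39 and 82 cells. Both IL-12 receptor chains were caught in 0 of 6025 TdLN cells, which allows a share of up to 0.0498%, in 1 PBMC cell and in 5 memory cells, too few to describe their pairing.

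T cells were grouped by clustering all 3 libraries together, with the 4 receptor genes and the pathway genes left out of the genes used. Groups of at least 50 cells of 1 library within 1 cluster numbered 19, and clusters are called by their leading genes. Nearly every cluster was mostly of 1 library, so cluster and library are hard to tell apart, and most comparisons of clusters below are made inside a library.

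In blood, the receptor genes lay mainly in the clusters that carried effector genes. The clusters led by Gzma and Cx3cr1 (10 of 10 effector markers raised) and by Serp2 and Tcrg-C2 (6 of 10, with 8 of 9 effector memory markers) made up nearly all of the 2927 PBMC cells in effector-marker clusters, 53.4% of the library. They held 63.5% of the PBMC UMIs of Il18r1, 80.03% of Il18rap, 56.3% of Il12rb1 and 77.9% of Il12rb2. Of the cells in these clusters, 370 had UMIs of other beta segments alone and 134 of Trbv13-3 alone, the segment of the P14 receptor. Most had no such call. Il18r1 stood at 240.0 CPM there, against 73.7 CPM in the other PBMC T cells, a ratio of 3.26 (3.09 to 3.43). Il18rap stood at 172.7 CPM, against 23.0 CPM, a ratio of 7.52 (6.93 to 8.17). Il12rb2 stood at 9.37 CPM, against 1.42 CPM, a ratio of 6.61 (4.70 to 9.46), and Il12rb1 at 7.07 CPM, against 2.93 CPM, a ratio of 2.41 (1.82 to 3.21). The effector-marker cells were shallower, with a median of 5286 UMIs against 12240. The interval of their Il18r1 level, 232.6 to 247.5 CPM, overlapped that of the whole memory library. It lay below that of the 172 memory cells in effector-marker clusters, at 367.8 CPM (332.9 to 405.4).

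The chains were not raised alike in the PBMC effector-marker clusters. The Gzma and Cx3cr1 cluster (2030 cells) held 227.2 CPM of Il18r1 and 220.1 CPM of Il18rap, or 0.969 Il18rap UMIs per Il18r1 UMI (0.915 to 1.03). The Serp2 and Tcrg-C2 cluster (889 cells), which also carries S100a4, Lgals3 and Gzmk, held 261.7 CPM of Il18r1 and 88.1 CPM of Il18rap, or 0.337 (0.304 to 0.372). It also had 4 of 7 exhaustion and 3 of 8 resident-like markers raised. Il12rb2 followed Il18rap, at 12.3 CPM (10.3 to 14.6) in the first and 4.07 CPM (2.61 to 6.05) in the second, while Il12rb1 was at 6.99 CPM (5.49 to 8.78) and 7.28 CPM (5.27 to 9.81), with overlapping intervals. The first cluster alone carried 65.3% of PBMC Il18rap UMIs and 65.3% of Il12rb2 UMIs, but 38.4% of Il18r1 UMIs, on 37.0% of the cells.

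The remaining PBMC clusters were lower in Il18r1. The shallow cluster led by Jchain (99 cells) had 146.2 CPM of Il18r1, but its 104.4 CPM of Il18rap (70.5 to 149.1) overlapped the level of the Serp2 and Tcrg-C2 cluster. The cluster led by Gzmm and Fcgrt (638 cells) had 123.2 CPM of Il18r1 and 43.1 CPM of Il18rap. The cluster led by Igfbp4 and Fam241a, with 6 of 8 naive and 4 of 9 central memory markers raised (1483 cells), had 53.1 CPM of Il18r1, 12.5 CPM of Il18rap and 0.707 CPM of Il12rb2. The lowest Il18r1 in blood was 31.2 CPM (24.2 to 39.7), in 190 cells of the cluster led by Izumo1r, Ikzf2, Ctla4 and Myb, genes linked to anergy and exhaustion. Il18r1 thus spanned 8.38-fold between PBMC clusters.

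Draining node cells were low in every cluster of at least 50 cells. The cluster led by Fos and Dusp1 (1642 cells) was highest, with 64.7 CPM of Il18r1 (60.9 to 68.7) and 27.1 CPM of Il18rap (24.7 to 29.7). It held 27.0% of TdLN T cells and 49.4% of their Il18rap UMIs. The interferon-responding cluster (9 of 9 markers, 589 cells) had 48.0 CPM of Il18r1, the cluster led by Igfbp4 and Fos (2500 cells) 34.9 CPM, the cycling cluster (9 of 9 markers, 309 cells) 27.96 CPM and the Izumo1r cluster (790 cells) 24.96 CPM, the last pair with overlapping intervals. The highest TdLN cluster still lay below every memory cluster, whose lowest was 157.7 CPM.

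The 128 TdLN cells led by Tnfrsf9, Cd83 and Xcl1, with 10 of 12 markers of recent activation raised, had low IL-18 receptor and higher Il12rb1 counts. They had the lowest Il18r1 of all 19 groups, 10.9 CPM (6.67 to 16.9) against 42.5 CPM in the other TdLN T cells, and Il18rap at 2.18 CPM (0.595 to 5.59) against 13.9 CPM. Il12rb1 was at 9.28 CPM (5.41 to 14.9) against 3.65 CPM, a ratio of 2.55 (1.46 to 4.16) on 17 UMIs. Il12rb2 was at 2.73 CPM (0.886 to 6.37) on 5 UMIs. Heat shock genes were also raised in this cluster (3 of 6), and their part in these values was not tested.

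Memory cells carried Il18r1 in every cluster, with less spread than in the other libraries. The main memory clusters, led by Ier3 and S100a6 (3323 cells) and by Camk2n1 and S100a6 (3028 cells), had 213.3 and 276.7 CPM of Il18r1 and 44.3 and 58.7 CPM of Il18rap. Between memory clusters Il18r1 spanned 2.45-fold, against 5.93-fold in TdLN and 8.38-fold in PBMC. The top was a cluster of 118 cells led by Lgals3 and Klrb1c, with 9 of 10 effector markers raised, at 386.3 CPM of Il18r1 (344.8 to 431.5) and 134.1 CPM of Il18rap (110.1 to 161.8). That was the highest Il18r1 of all 19 groups, and Il12rb2 stood at 18.5 CPM (10.3 to 30.4) there, on 15 UMIs. Heat shock genes were also raised in this cluster (4 of 6), and their part in these values was not tested. The 97 memory cells led by Ckb and P2rx7, with 5 of 8 resident-like markers raised, had the lowest Il18r1 of memory. Their Il12rb2 was at 17.3 CPM (8.66 to 31.0) on 11 UMIs, against 7.52 CPM in the other memory T cells. Thinned, Il12rb2 was in 2.22% of these cells (0.270 to 7.80) and in 2.27% of all memory cells, so the thinned shares did not differ.

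**Figure D3:**
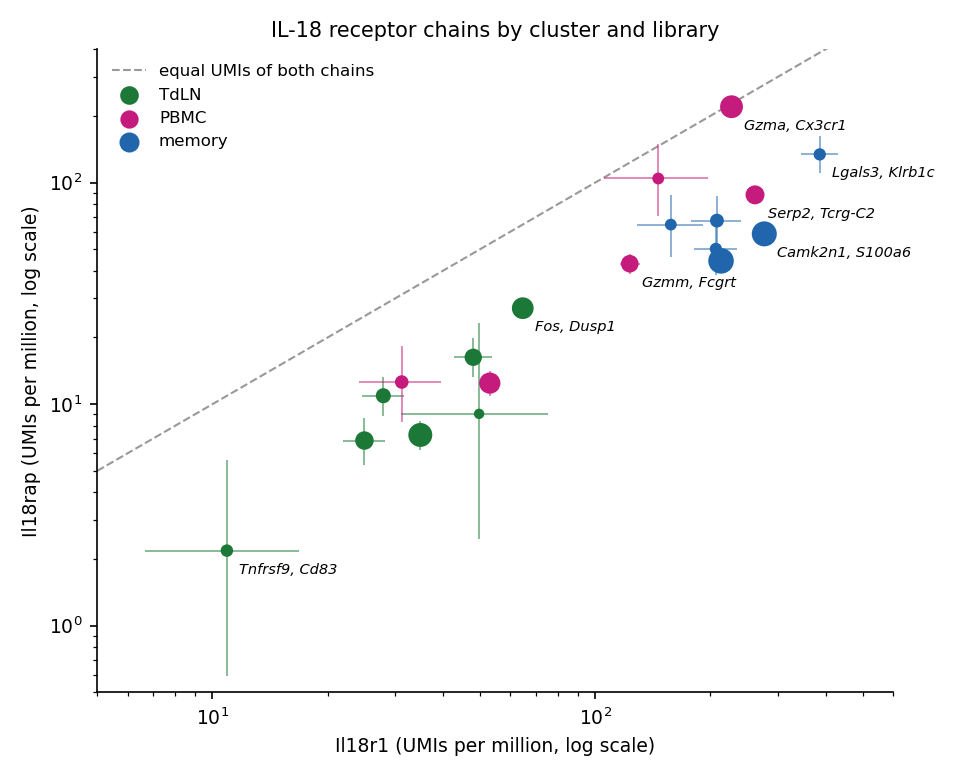
Il18rap against Il18r1, both in CPM on log scales, for the 19 groups of at least 50 cells of 1 library in 1 cluster. Point area grows with the number of cells, lines are exact Poisson 95% intervals, and the dashed line marks equal counts of both chains. The PBMC cluster led by Gzma and Cx3cr1 lies on that line and the memory clusters lie below it.

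Cells were also read without clusters, by splitting thinned cells on a UMI of 29 state genes. Several of these genes also mark the clusters, so the splits are not independent of them. How often the intervals would stand apart over all genes is not given, so the counts describe this list alone. In PBMC the intervals of the Il18r1 share stood apart for 20 of 28 genes with at least 50 cells on each side, 13 higher and 7 lower in cells with the gene. In TdLN they stood apart for 11 of 22, 9 higher and 2 lower, and in memory for 3 of 22, all higher. For Il18rap the counts apart were 23 of 28 in PBMC, 13 of 22 in TdLN and 4 of 22 in memory.

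In PBMC, Il18r1 was in 46.2% of cells with Klrk1, which encodes the receptor NKG2D, against 24.8% of cells without, and in 45.0% of cells with the fractalkine receptor Cx3cr1 against 28.7% without. It was in 19.1% of cells with the lymph node homing receptor gene Ccr7 against 38.6% without. The contrast was steeper for Il18rap, in 41.4% of PBMC cells with Gzma against 12.5% without, and in 7.55% with Ccr7 against 29.5% without. Il12rb2 was in 3.32% of PBMC cells with Gzma against 0.680% without, and in 0 of the cells without Ccl5 against 2.07% with it.

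In TdLN, Il18r1 was in 17.9% of cells with the chemokine gene Ccl5 against 8.85% without, in 13.05% with the memory-linked surface gene Ly6c2 against 5.93% without, and in 7.46% with Tox against 11.9% without. For Tcf7 the intervals overlapped there. In memory the widest differences among the 3 were 65.3% with Cx3cr1 against 49.8% without, on 72 positive cells, then 51% against 44.7% for Il7r and 52.1% against 47.2% for Klrk1. For Il7r the Il18rap share was 4.93% with against 3.18% without in TdLN and 15.9% with against 29.9% without in PBMC, opposite directions whose difference was not tested.

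**Figure D4:**
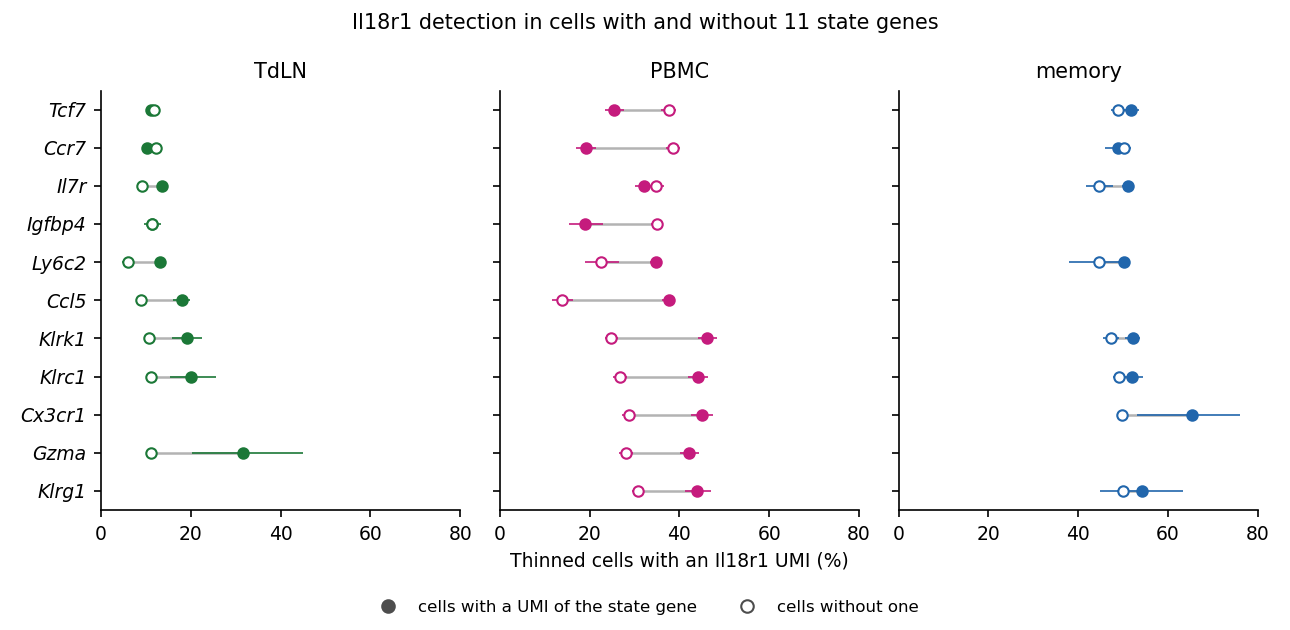
Share of thinned cells with an Il18r1 UMI among cells with (filled) and without (open) a UMI of 11 state genes, by library, with Clopper-Pearson 95% intervals. Genes with under 50 cells on a side are left out. The points part widely in PBMC, less in TdLN, and lie near 50% on both sides for most genes in memory.

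Since the libraries differ in their states, cells with both Tcf7 and Ccr7 UMIs after thinning, genes of quiescent lymph node homing T cells, were compared across libraries. There were 1353 such cells in TdLN, 729 in PBMC and 486 in memory. Il18r1 was in 11.1% of them in TdLN (9.46 to 12.9), 16.5% in PBMC (13.8 to 19.4) and 51.2% in memory (46.7 to 55.8). The PBMC share was thus below the 33.6% of all PBMC cells. Il18rap was in 4.21%, 7.27% and 14.6%, so that PBMC now lay below memory. Outside effector, cycling and interferon clusters the log2 ratio of PBMC over memory was -1.71 for Il18r1 and -1.19 for Il18rap, against -0.89 and 0.50 over all T cells. Inside the effector-marker clusters Il18rap did not turn, at 172.7 CPM in PBMC (166.4 to 179.2) and 149.5 CPM in memory (127.5 to 174.1), with overlapping intervals. For TdLN over PBMC the log2 ratio outside effector, cycling and interferon clusters was -0.80 for Il18r1 and -0.73 for Il18rap. Neither was 2-fold any longer, against -1.66 and -2.47 over all T cells. The unlike sorts cannot be told apart from the libraries.

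The P14 receptor uses the beta segment Trbv13-3, so cells with UMIs of that segment alone or of other segments alone bear on how far the blood values are those of the transferred clone. In PBMC, 481 cells with other segments alone had 167.3 CPM of Il18r1 (154.5 to 180.8), against 84.2 CPM (78.8 to 89.8) in 928 Trbv13-3 cells, a ratio of 1.99 (1.79 to 2.202). For Il18rap these were 124.8 CPM (113.8 to 136.6), against 32.2 CPM (29.0 to 35.8), a ratio of 3.87 (3.36 to 4.46). Of the cells with other segments, 370 of 481 were in effector-marker clusters, against 134 of 928 Trbv13-3 cells. Cells in those clusters with a segment call thus mostly lacked the clone's segment. Within those clusters Il18r1 was 222.4 CPM with other segments and 218.5 CPM with Trbv13-3, and outside them the ratio was 1.12 (0.912 to 1.35). For Il18rap the ratio outside them was 1.57 (1.14 to 2.13), and inside them the levels were 182.3 CPM (165.3 to 200.7) with other segments and 148.9 CPM (123.8 to 177.5) with Trbv13-3. In memory, Il18r1 was 250.6 CPM in 114 cells with other segments and 247.5 CPM in 3017 Trbv13-3 cells, and in TdLN 34.0 CPM in 155 and 40.2 CPM in 1408. Between Trbv13-3 cells alone, the log2 ratio of PBMC over memory was -1.56 for Il18r1 and -0.68 for Il18rap, so the higher Il18rap of blood was not seen in cells with the clone's segment.

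The neighbours of Il18r1 and Il18rap in the interleukin-1 receptor cluster of chromosome 1 were near silent. Il1rl1, the IL-33 receptor gene that ends just before Il18r1 begins, was at 0.102 CPM in TdLN, 0.0630 CPM in PBMC and 0.328 CPM in memory, from 7, 3 and 23 UMIs. Il1rl2 was at 1.42, 1.03 and 0.757 CPM, Il1r1 and Il1r2 had at most 3 UMIs in a library, and Slc9a4 on the far side had none. High counts were thus limited to the IL-18 receptor pair among these 7 genes.

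None of 9 ligands and antagonists, Il12a, Il12b and Il18 among them, reached 20 CPM in any library, and the decoy Il18bp was at 2.53 CPM in TdLN, 1.89 CPM in PBMC and 1.27 CPM in memory. Among IL-12 signalling genes, 0 of 10 at 20 CPM or more were 2-fold apart in TdLN over memory and 0 of 10 in PBMC over memory, and 0 of 11 in TdLN over PBMC. Of all genes, 3.96% were higher and 1.90% lower, 1.66% and 0.616%, and 2.68% and 1.92% in these comparisons, so 0 of so few genes is near that share. Under 20 CPM, and picked after its values were seen, Cish was at 3.65 CPM in TdLN, 16.8 CPM in PBMC and 9.24 CPM in memory. That is 2.53-fold lower in TdLN than in memory and 4.61-fold lower than in PBMC. Stat4, the IL-12 signal transducer, was at 79.4 CPM in TdLN, 112.4 CPM in PBMC and 122.4 CPM in memory. Jak2 was at 18.1, 26.9 and 25.04 CPM and Tyk2 at 18.7, 20.7 and 17.0 CPM in the same order. In TdLN over memory the phosphatase gene Ptpn6 was 1.92-fold and the feedback inhibitor gene Socs3 1.86-fold higher. In PBMC over memory Socs1 was 1.71-fold lower and Socs3 1.48-fold higher. In TdLN over PBMC Ptpn6 was 1.98-fold, Socs1 1.78-fold and Stat5a 1.55-fold higher. The list's median log2 ratio was 0.13, -0.06 and 0.32 in TdLN over memory, PBMC over memory and TdLN over PBMC.

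Of the IL-18 signalling genes at 20 CPM or more, 3 of 12 were at least 2-fold higher in TdLN than in memory and none was lower by as much, beside 3.96% of all genes higher and 1.90% lower. Tnfaip3, encoding the NF-κB inhibitor A20, was at 130 CPM in TdLN, 70.6 CPM in PBMC and 11.4 CPM in memory. Its fold over memory was 11.4 in TdLN (log2 3.51) and 6.20 in PBMC. Nfkbia was at 340.5, 146.3 and 114.5 CPM and Nfkbiz at 49.2, 21.7 and 14.1 CPM, which is 2.98-fold and 3.49-fold higher in TdLN than in memory. In PBMC over memory 1 of 12 was higher and none lower, beside 1.66% and 0.616% of all genes, and in TdLN over PBMC 2 of 12 were higher and none lower, beside 2.68% and 1.92%. The order of these 3 genes, TdLN highest, is opposite to that of Il18r1. Of the adaptor and kinase genes, Myd88, Irak4 and Traf6 differed by at most 1.47-fold between any libraries, with Myd88 at 26.4, 18.7 and 20.9 CPM, Irak4 at 13.2, 12.5 and 13.02 CPM and Traf6 at 8.31, 9.73 and 6.63 CPM in TdLN, PBMC and memory. Under 20 CPM, and picked after their values were seen, Irak2 was 2.02-fold lower in TdLN than in memory (3.07 against 6.18 CPM), and Tab1 was 2.23-fold higher in TdLN than in PBMC. Ikbkb was 1.55-fold lower in PBMC than in memory, and Relb was 1.84-fold higher in TdLN than in memory. The list's median log2 ratio was 0.34, -0.11 and 0.55 in TdLN over memory, PBMC over memory and TdLN over PBMC, beside 0.16, 0.04 and 0.11 over all genes tested.

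Of 22 regulators and targets, 12 reached 20 CPM in TdLN over memory, with 1 at least 2-fold higher and 4 lower, beside 3.96% and 1.90% of all genes. For PBMC over memory 12 reached it, with 3 higher and 1 lower, beside 1.66% and 0.616%. For TdLN over PBMC 13 reached it, with 2 higher and 5 lower, beside 2.68% and 1.92%. Tbx21, encoding T-bet, was at 10.6 CPM in TdLN, 31.5 CPM in PBMC and 45.9 CPM in memory, the same order as Il18r1 and Il12rb2. Its relative Eomes was at 57.4, 34.1 and 37.7 CPM, highest in TdLN. Ifng, the joint output of both cytokines, was within 1.18-fold across libraries, at 28.3, 29.8 and 25.3 CPM. Gzmb was at 7.46, 166.1 and 27.7 CPM, Xcl1 at 48.2, 6.62 and 39.6 CPM and Gadd45b at 59.1, 19.0 and 13.1 CPM. PBMC exceeded memory 3.99-fold for Bhlhe40 and 2.29-fold for Ccl4, and Serpina3g was 2.45-fold lower in TdLN than in memory.

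Other receptors give the IL-18 receptor fold changes a scale. Among 10 further receptors of these families 3 reached 20 CPM, and Il6st, the gp130 gene, was at 66.2 CPM in TdLN, 22.7 CPM in PBMC and 14.9 CPM in memory, while Il27ra and Sigirr stayed within 1.32-fold. Of 12 other cytokine receptors at 20 CPM or more in TdLN over memory, Il7r was lower, at 270.6 CPM in TdLN against 751.5 CPM in memory (2.78-fold), and Il6ra higher, at 50.3 against 18.3 CPM. In PBMC over memory Il7r alone was 2-fold lower, by 2.45-fold, and memory cells were sorted on its protein. In TdLN over PBMC Il21r alone was 2-fold higher, by 2.02-fold, and Ifngr1 was 1.95-fold lower. Of all genes, 3.96% were at least 2-fold higher and 1.90% lower in TdLN over memory. These shares were 1.66% and 0.616% in PBMC over memory, and 2.68% and 1.92% in TdLN over PBMC.

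**Figure D5:**
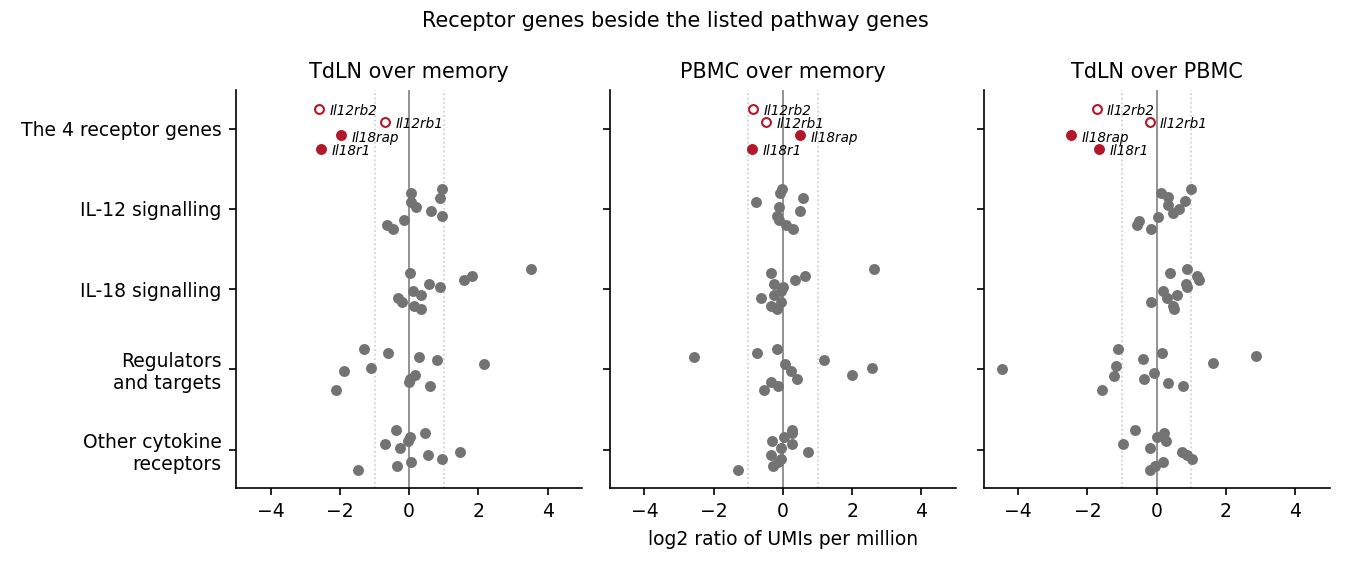
The log2 ratio of CPM in the 3 comparisons for the 4 receptor genes (red, open where under 20 CPM in both libraries) and for listed genes at 20 CPM or more (grey). Dotted lines mark 2-fold. The receptor genes lie left of 0 in both comparisons of TdLN, while most listed signalling genes lie near or right of it.

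Genes whose level ran most like the receptors were found over the 19 groups, by Pearson correlation of log2(CPM + 1) among 4490 genes. The groups share 3 libraries, and shared library differences enter every coefficient. Il18r1 and Il18rap correlated at 0.936 with each other. Nearest to Il18r1 were Dpm3 (0.955), Ccl5 (0.953), Tmem37 (0.946), Kcnj8 (0.941) and Ncald (0.940), and nearest to Il18rap were Ccl5 (0.965), Ahnak (0.965), Mapre2 (0.958), Ncald (0.954) and the chemokine receptor gene Ccr2 (0.954). Nearest to Il12rb2 were the integrin gene Itga1 (0.910), Mob1a (0.884), Tbx21 (0.882), Camk2n1 (0.879) and Nedd4 (0.877). Il12rb1 was most like Slamf7 (0.885), Ywhag (0.865), Bms1 (0.855), Nfx1 (0.853) and Serpinb9 (0.852). The IL-12 receptor chains correlated at 0.533 with each other, on far fewer UMIs.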

How the data were processed

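The libraries were 10x Chromium Next GEM Single Cell 3′ libraries, per the labels' protocols. The authors deposited raw UMI counts per gene and barcode, made with Cell Ranger 3.1.0 on the genome build mm10, per the submitters' processing notes; whether intronic or antisense reads were counted is not given in the sources used here. Barcodes under 500 genes or over 10% mitochondrial counts were dropped. They were clustered with scanpy 1.11.5 (2000 variable genes without the receptor and pathway genes, 30 components, 15 neighbours, Leiden resolution 0.8), and 3 clusters with most markers of another cell type raised were removed. No doublet caller was run, and leaving out the 5% of cells with most UMIs was tried instead. A marker list was called raised in a cluster with at least 3 of its genes, and 33.3% of them, at 20 CPM and 1.5-fold over the other cells, a rule set after the clusters had been seen.

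Counts were summed per library and given as CPM of the T cell total, with exact Poisson intervals; ratios have exact conditional binomial intervals, and shares Clopper-Pearson ones, computed with scipy 1.17.1; the share that a count of 0 allows is 3 counts of the total. Cells were thinned to 3000 UMIs by random draw (seed 1). With 1 library per group no test was run, and intervals cover counting error only. The ratio and thinning steps were tested on simulated data. The receptor genes and the gene lists were chosen with earlier results of these data known. Named were the 4 receptor genes, the genomic neighbours of Il18r1 and Il18rap, and Stat4, Tyk2, Jak2, Myd88, Irak4, Traf6, Ifng, Tbx21, Eomes, Il18bp and Sigirr. From each list, the 4 genes with the largest log2 ratio per comparison at 20 CPM or more in the higher library were also named. State genes shown were chosen from the list of 29 after their values were seen. Coordinates are from GENCODE M21, which matched 30934 of 31053 gene IDs. A tumour library that the study design names was not analysed here. Results that rest on certain listed genes, among them a planned restriction to cells with RNA of the memory sort markers, are not reported here.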

Additional observations from a re-analysis of the deposited data

How the results depend on the processing

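No paired analysis was possible because each group had 1 library. Of 12 ratios between libraries, 6 were at least 2-fold under 8 of the 10 alternatives and 7 under the other 2, the cells outside effector, cycling and interferon clusters, and Trbv13-3 cells, where the ratios past 2-fold were in part others. Log2 ratios kept their sign in 116 of 120 cases, and of the 464 alternative values 188 moved beyond their counting interval. Values below are given as TdLN over memory, PBMC over memory and TdLN over PBMC where 3 follow each other, and those within counting error of the values above are left out. With TMM scaling Il18r1 was -2.67 in TdLN over memory and -1.77 in TdLN over PBMC, and Il18rap -2.09 and -2.58. Totals without ribosomal and mitochondrial genes gave Il18r1 -0.94 in PBMC over memory and -1.59 in TdLN over PBMC. The stricter cell filter (1000 genes, 5%) gave Il18r1 -0.81 in PBMC over memory and Il18rap -2.08, 0.65 and -2.73. Without the 5% of cells with most UMIs, Il18r1 was -2.46 in TdLN over memory and -0.81 in PBMC over memory, with Il18rap 0.59 in PBMC over memory. Cells of 5000 to 15000 UMIs gave Il18r1 -2.41 in TdLN over memory and -1.51 in TdLN over PBMC, and Il18rap -1.81, 0.37 and -2.18. Equal weight per cell gave Il18r1 -0.59 in PBMC over memory and -1.91 in TdLN over PBMC, and Il18rap 0.93 and -2.96.

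Outside effector, cycling and interferon clusters, Il18r1 was -1.71 in PBMC over memory and -0.80 in TdLN over PBMC, and Il18rap -1.19 and -0.73. Trbv13-3 cells alone gave Il18r1 -2.62, -1.56 and -1.07, and Il18rap -0.68 in PBMC over memory and -1.25 in TdLN over PBMC. Il18rap in PBMC over memory thus changed sign in both settings, and the cause was not tested.

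The Il18r1 share in TdLN, PBMC and memory was 7.86%, 25.2% and 38.3% at 2000 UMIs, 17.4%, 41.6% and 67.1% at 5000 UMIs, 30.3%, 56.0% and 85.3% unthinned, and 10.6%, 29.6% and 63.1% for at least 2 UMIs unthinned. Trbv13-3 cells gave 24.4% in PBMC. The share with both IL-18 receptor chains was 0.414%, 5.95% and 4.15% at 2000 UMIs, 1.87%, 15.4% and 15.6% at 5000 UMIs and 6.31%, 24.9% and 33.6% unthinned. The order of PBMC and memory thus differed between settings. These settings also differ in the cells kept, and unthinned libraries differ in depth. Outside effector, cycling and interferon clusters it was 1.81% in PBMC. The spread of Il18r1 over clusters was 3.03-fold in TdLN at resolution 0.4, and 4.98-fold in PBMC and 1.93-fold in memory with the stricter cell filter.

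Counts of genes at least 2-fold higher and lower in TdLN over memory were 433 and 239 with a 5 CPM minimum, 79 and 39 with 50 CPM, 3187 and 2196 with none, and 296 and 149 with totals free of ribosomal and mitochondrial genes. In PBMC over memory they were 195 and 129, 38 and 10, 2455 and 2139, and 78 lower with those totals. In TdLN over PBMC they were 328 and 201, 47 and 47, 2784 and 2148, and 225 higher with those totals. In PBMC, other beta segments over Trbv13-3 gave 1.12 for Il18r1 and 1.57 for Il18rap without effector-marker clusters, and 5.09 for Il18rap with at least 2 UMIs of 1 segment. Depth limits the IL-12 receptor genes most, at 86 to 533 UMIs a library.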

Other observations

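In TdLN, 19 cells fell in the effector-marker clusters, too few for the cluster comparison. They held 39 Il18r1 UMIs, or 335.3 CPM (238.4 to 458.3), against 41.2 CPM (39.7 to 42.7) in the other TdLN T cells. Il18rap was at 25.8 CPM on 3 UMIs and Il12rb2 at 17.2 CPM on 2. Of thinned TdLN cells, 60 held Gzma, and Il18r1 was in 31.7% of these, against 11.2% of cells without Gzma. Il18rap was in 18.3% of them, against 3.92%.

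The 171 PBMC cells removed for platelet RNA carried T cell transcripts as well and resembled the other blood cells in the receptor genes, apart from the CPM of Il18rap. Il18r1 was at 124.8 CPM (106.9 to 144.7) in them, against 131.5 CPM in PBMC T cells. Il18rap was higher in CPM, at 93.2 (77.9 to 110.7), against 75.03 (72.6 to 77.5), intervals that stand narrowly apart. Thinned, it was in 23.5% of them (17.3 to 30.7) and in 23.9% of PBMC T cells (22.8 to 25.1), so the thinned shares did not differ.

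A small cluster led by Jchain held cells with few UMIs from PBMC and memory and was left unnamed. Its 210 memory cells had 208.1 CPM of Il18r1 (178.5 to 241.2) and its 99 PBMC cells 146.2 CPM (105.4 to 197.6), both inside the range of the other clusters of their library.

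PBMC cells with both IL-18 receptor chains, 548 after thinning, held Gzma in 67.7%, Cx3cr1 in 57.3% and Ccr7 in 6.20%. Those with Il18rap alone held them in 69.0%, 51.5% and 9.48%, and those with Il18r1 alone in 41.5%, 33.0% and 18.2%. Cells with neither held them in 25.4%, 18.2% and 36.7%. Klrk1 was in 71.7% of cells with both chains (67.7 to 75.5) and 61.5% of those with Il18rap alone (57.9 to 65.1), intervals that stand apart.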
